A study of Mus musculus with 12 samples.

Results

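The genes that encode the proteins of the cytosolic ribosome were followed through mRNA-seq of the adult mouse hippocampus. Members were chosen by symbol alone, as genes named Rpl or Rps plus a number, with Rplp0, Rplp1, Rplp2 and Rpsa, and without the Rps6k kinases and pseudogenes. This gave 84 of the 24209 genes in the deposited tables, of which 53 belong to the large (60S) subunit, including 3 of the P stalk, and 31 to the small (40S) subunit. The 84 genes include 8 paralogues (Rpl3l, Rpl7l1, Rpl10l, Rpl22l1, Rpl32l, Rpl36al, Rpl39l and Rps27l).

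All 12 mice were wild-type male C57BL/6, were injected at 10 weeks of age into both hippocampi with an AAV2/5 vector, and were analysed 10 weeks later. Every vector carried GFP under the human synapsin promoter, which directs expression to neurons, while the RNA came from the whole hippocampus with its glia and vessels. A sponge vector added imperfect target sites for 1 miRNA family, which bind the miRNA and keep it from its own mRNAs. The miR-9 experiment held 3 mice injected with GFP-miR-9sp and 3 with GFP Ctrl, the vector without sites. The miR-34 experiment held 3 mice injected with GFP-miR-34sp and 3 other GFP Ctrl mice. Labels name the experiment for 1 set of GFP Ctrl mice only, and the other set was placed in the miR-9 experiment, since each experiment is described as having 3 such controls. The labels call the cells hippocampal neurons, but markers of glia were present in every mouse (12 astrocyte markers summed to 3411 to 3917 reads per 1000000 counted reads, RPM).

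Each ribosome is built from ribosomal RNA and 1 copy of most of its proteins, so cells make these proteins in matched amounts. Their mRNAs are short and abundant, and most begin with a C followed by a run of pyrimidines, the 5′ terminal oligopyrimidine (TOP) tract, through which mTOR and LARP1 set their translation. The genes are also known for their many processed pseudogenes, intronless copies of the mRNA scattered through the genome. In neurons, ribosomes are found in dendrites as well as in the cell body.

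Mice of the miR-9 experiment had 17279620 to 24428477 counted reads each, and mice of the miR-34 experiment 11029604 to 16934133, so that 3 reads, taken as the smallest signal, amounted to 0.123 to 0.272 RPM. This limit covers counting error only. The summed level of 12 neuronal markers was 5324 to 6567 RPM in the 12 mice. In the miR-34 experiment the summed level of 12 choroid plexus markers was 658 to 2419 RPM in the GFP Ctrl mice and 77.2 to 159 RPM in the miR-34sp mice, and in the miR-9 experiment it was 131 to 763 RPM and 59.3 to 906 RPM. Of the 10 choroid plexus markers tested, 10 were lower in the miR-34sp mice than in their GFP Ctrl mice and 4 of them passed the test (Folr1, at 0 reads in all 12 mice, and Otx2, at 3 reads or fewer, were not tested). Their part in the results below was not tested.

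Several sets of sequences bear on the results. The first are mature miRNAs of the families that the sponges bind, from RefSeq, with the seed (bases 2 to 8) in capitals. miR-34a and miR-34b share their seed. The family also includes miR-34c.
miR-9-5p: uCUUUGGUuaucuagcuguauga
miR-34a-5p: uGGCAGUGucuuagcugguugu
miR-34b-5p: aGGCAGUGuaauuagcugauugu

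Of the sites for these seeds, only the 8mer (the complement of the seed followed by an A) was searched, and only in annotated 3′ UTRs. Of 80 members with an annotated 3′ UTR in GENCODE M1, 0 held the miR-9 8mer (ACCAAAGA), compared with 3.29% of 18486 genes, and 1 held the miR-34 8mer (CACTGCCA), compared with 4.40% of genes. The 3′ UTRs of the members had a median of 70 bases, and those of all genes 741 bases. A shorter UTR has fewer positions for a site, and the counts were not adjusted for length. They therefore do not show whether sites were rarer in the members than their length gives. The 1 member with a miR-34 8mer was Rpl6, a 60S protein, and its log2 ratio of miR-34sp to GFP Ctrl was 0.01 ± 0.03 (SE, 3 mice in each group), with an adjusted p of 0.988 (edgeR quasi-likelihood test, Benjamini-Hochberg).

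The second set shows the longest pyrimidine run within 50 bases of the annotated start, on either side, of 5 members that stand at the ends of the comparison between experiments described below (RefSeq, GRCm38.p6, printed on the gene's strand, run in capitals). Rps23 lies at chr13:90923142-90923171 (+), Rpl28 at chr7:4792953-4792982 (+), Rpl9 at chr5:65391383-65391412 (-), Rpl4 at chr9:64173406-64173435 (+) and Rps15 at chr10:80292447-80292476 (+).
Rps23: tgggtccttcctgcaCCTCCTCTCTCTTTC
Rpl28: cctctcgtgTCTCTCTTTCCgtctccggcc
Rpl9: acgaaagacgTTCTCTCTTTgccccatcta
Rpl4: agcgtggCCTTCTCCTCTCCCCgtcatggt
Rps15: cagcccgtaCTTCCTTTTCCgagtaaccgc

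A run of at least 8 pyrimidines (C or T, gene strand only) within 50 bases of the annotated start on either side was found for 54 of the 64 members with a promoter entry (84.4%) and for 39.3% of 27025 genes. The longest run had a median of 10 bases in members and 7 bases in all genes. These runs describe the annotated starts, and where transcription began in these mice was not measured.

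The third set shows 50 coding bases from the middle of 4 members on NCBIM37 (mm9). These members stand at the ends of the comparison between experiments described below, and are not those with the most and the fewest copies. Windows of Rpl7a had on average 14.5 further copies in the genome, compared with 4.28 for Rps23 and 2.25 for Rpl28. Exon numbers are those of the GENCODE M1 transcript. The stretch of Rps23 (exon 3, chr13:91063960-91064009, +) occurs at 4 places in the genome and that of Rpl28 (exon 4, chr7:4745668-4745717, +) also at 4. The stretches of Rpl8 (exon 4, chr15:76735330-76735379, +) and Rpl4 (exon 6, chr9:64024809-64024858, +) occur at 1 place each, their own.
Rps23: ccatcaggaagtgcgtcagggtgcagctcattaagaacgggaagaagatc
Rpl28: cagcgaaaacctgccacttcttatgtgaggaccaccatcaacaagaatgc
Rpl8: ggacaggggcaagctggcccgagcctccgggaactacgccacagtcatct
Rpl4: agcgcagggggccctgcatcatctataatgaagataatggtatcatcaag

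The summed ribosomal protein genes took nearly the same share of reads in all mice of an experiment and a share about 2 times as large in one experiment as in the other. In the miR-9 experiment they held 0.560% ± 0.00241 (SD, n = 3) of counted reads in the GFP Ctrl mice and 0.547% ± 0.00954 in the miR-9sp mice. In the miR-34 experiment they held 1.17% ± 0.00937 in the GFP Ctrl mice and 1.18% ± 0.0144 in the miR-34sp mice. The lowest mouse of the miR-34 experiment (1.16%) stood above the highest mouse of the miR-9 experiment (0.563%), while sponge and control mice lay close within each. In the miR-9 experiment the groups did not overlap, at 0.537% to 0.555% in the miR-9sp mice and 0.558% to 0.563% in the GFP Ctrl mice. In the miR-34 experiment they overlapped. These sums were not tested. Reads of 60S genes outnumbered those of 40S genes 1.63-fold to 1.69-fold in every mouse. These are sums over 53 and 31 genes, so the ratio does not show a higher level per gene. Most single members varied little between mice of a group, with a median coefficient of variation of 3.07% over 276 gene and group pairs with more than 50 reads. The largest was 35.2% (Rps27l in the miR-9sp mice). Pairs with fewer reads, such as Rps23 in the miR-9 experiment, were left out. Fewer cells of a type and less RNA per cell cannot be told apart in such bulk samples.

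**Figure D1:**
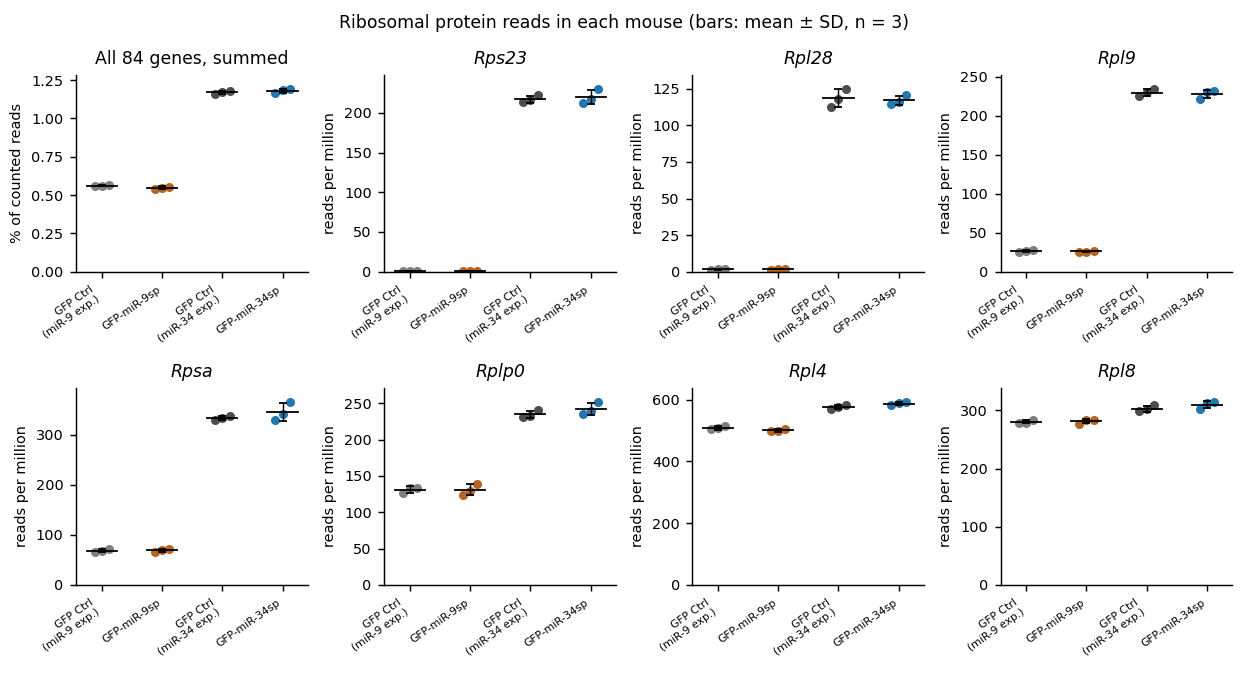
The share of counted reads (%) held by all 84 ribosomal protein genes and the RPM of 7 single genes in each of the 12 mice (points), with the mean and SD of the 3 mice of a group. Sponge and GFP Ctrl mice lie close within each experiment, though the summed share is lower in every miR-9sp mouse than in its GFP Ctrl mice. The miR-34 experiment lies above the miR-9 experiment by a small step for Rpl8 and by more than 300-fold for Rps23.

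The members differed widely in counted level. How reads that fit several places in the genome were counted is not given, and its part in these levels was not tested. Levels between genes were compared as RPM divided by the length of the transcript in kilobases (RPKM), as means over the 6 mice of an experiment and for members with 1 RefSeq entry and at least 2 RPM. They ranged from 20.9 to 887 RPKM, with a median of 210, over 70 members in the miR-34 experiment. In the miR-9 experiment they ranged from 2.34 to 503 RPKM, with a median of 71.5, over 68 members. Among the 68 genes with at least 2 RPM in both, the order of the levels was similar (Spearman's rho = 0.79). These genes share the libraries and their lengths and are not replicates. The limit left out Rps23 and Rpl28, which this rho therefore does not cover. They stood at 394 and 237 RPKM in the miR-34 experiment, but measured only 0.600 and 1.69 RPM in the miR-9 experiment.

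The highest level in both experiments was that of Rplp1, a protein of the P stalk that recruits elongation factors, at 503 RPKM in the miR-9 experiment and 887 RPKM in the miR-34 experiment. Rps15, a 40S protein, stood at 448 and 534 RPKM. Rpl4, a protein of the peptide exit tunnel, stood at 355 and 409 RPKM, and Rpl8, next to the peptidyl transferase centre, at 326 and 355 RPKM. Rpl41, the smallest of the ribosomal proteins, stood at 204 and 622 RPKM. The lowest of the members with at least 2 RPM were Rps27l at 20.9 RPKM in the miR-34 experiment and Rpl21 at 2.34 RPKM in the miR-9 experiment.

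Members listed under several RefSeq transcripts had almost no reads. Of the 84 genes, 73 had 1 RefSeq entry and 11 had more (Rpl3l, Rpl19, Rpl22, Rpl30, Rpl31, Rpl34, Rpl35a, Rpl38, Rps24, Rps27 and Rps27a). The 11 genes had a median of 0.301 RPM in the miR-9 experiment and 0.198 RPM in the miR-34 experiment, and none exceeded 1.87 RPM in any mouse. The 73 genes with 1 entry had medians of 49.0 and 132 RPM. All 11 lay under 2 RPM in both experiments, compared with 3 of the 73, which were the testis paralogues Rpl10l and Rpl39l and the 60S gene Rpl26.

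Rpl26 and Rpl10l were at 0 reads in all 12 mice, which allows up to 0.123 to 0.272 RPM in a mouse. Rpl38, a 60S protein, had 1 read in 1 of the 12 mice. Rpl31, a 60S protein at the exit of the tunnel, had 12 to 27 reads per mouse in its longest entry and 0 in both others. Rps27, a 40S protein, had 11 to 28 reads per mouse in a non-coding entry and 0 in its coding entry. Among all coding genes, 65.6% of 15886 genes with 1 entry and 35.8% of 4517 genes with more had a mean above 10 reads. How reads that fit several entries were counted is not given in the sources used here, and its part in these low values was not tested.

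**Figure D2:**
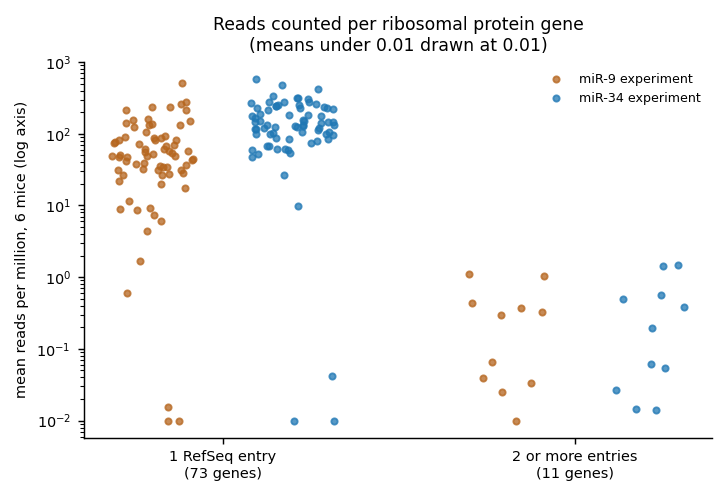
Mean RPM (log axis) of each ribosomal protein gene over the 6 mice of the miR-9 experiment and the 6 of the miR-34 experiment, for the 73 genes with 1 RefSeq entry and the 11 with more. All 11 lie under 2 RPM in both experiments, and 3 of the 73 do so in both.

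Of the 84 members, 72 passed the filter of a mean above 10 scaled reads and were tested, 70 of them with 1 RefSeq entry. The 12 that were not tested were Rpl10l, Rpl19, Rpl22, Rpl26, Rpl30, Rpl34, Rpl35a, Rpl38, Rpl39l, Rpl3l, Rps24 and Rps27a, with means of 0 to 8.08 reads. Tests were made with edgeR's quasi-likelihood test across all genes, with Benjamini-Hochberg adjustment over all of them.

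Inhibition of miR-9 moved no ribosomal protein gene past the test. Of 72 members, 0 were called at an adjusted p under 0.05, as were 0 of all 13045 genes (0.0%), and DESeq2 also called 0 members. At an unadjusted p under 0.05, 1 member was higher and 0 were lower, compared with 2.47% and 2.26% of all genes. Without regard to the test, the log2 ratio was above 0 for 22 members and below 0 for 50, with a median of -0.02, while that of all genes was -0.0006. Of the 72, 4 had all 3 miR-9sp mice above all 3 GFP Ctrl mice and 10 had all below, compared with 3.11% and 7.86% of all genes. Of the marker genes tested, 11 of 11 for neurons, 6 of 8 for endothelium, 6 of 10 for choroid plexus and 5 of 10 for astrocytes were higher. For oligodendrocytes 10 of 11 and for microglia 8 of 10 were lower. Of all genes tested, 49.7% were higher. None of these markers was called, and their part was not tested.

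The 1 member under 0.05 was Rpl37, a zinc finger protein of the 60S subunit. It measured 49.5, 50.5 and 48.5 RPM in the miR-9sp mice and 47.6, 39.8 and 47.0 RPM in the GFP Ctrl mice. The groups did not overlap, and 1 GFP Ctrl mouse stood apart from the others at the lower end. The ratio was 1.12-fold (95% interval 1.01 to 1.25, unadjusted p = 0.0406, adjusted p = 0.970, edgeR).

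The largest log2 ratio belonged to Rps27, at 1.43, 1.16 and 1.15 RPM in the miR-9sp mice and 0.901, 1.07 and 0.895 RPM in the GFP Ctrl mice, which rests on 28 or fewer reads per mouse. Its log2 ratio was 0.40 ± 0.22 (SE). After it and Rpl37 came Rpl39 (0.11), Rps21 (0.11) and the paralogue Rpl22l1 (0.08). At the other end stood Rps23 (-0.17 ± 0.34), with 7 to 15 reads per mouse, followed by Rpl36 (-0.16), Rpl32l (-0.13), Rpl29 (-0.13) and Rpl12 (-0.11). For all of these the adjusted p was 0.970 or above (edgeR).

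None of the 3 stalk genes passed the test after miR-9sp. Rplp1 measured 233, 227 and 228 RPM in the miR-9sp mice and 245, 241 and 239 RPM in the GFP Ctrl mice, and Rplp2 57.9, 53.9 and 56.2 RPM against 60.5, 61.2 and 59.7 RPM. Rplp0, which anchors both to the ribosome, measured 130, 124 and 139 RPM against 134, 134 and 126 RPM. The mice did not overlap for Rplp1 and Rplp2 and overlapped for Rplp0.

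The intervals were narrow. For the 62 members above 10 RPM in every mouse, all 62 of the 95% intervals of the ratio lay within 1.3-fold in either direction, the widest bounds being 0.821 and 1.249. These intervals are not adjusted for the number of genes.

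Inhibition of miR-34 likewise moved no ribosomal protein gene past the test. Of 72 members, 0 were called at an adjusted p under 0.05, compared with 8 of all 12492 genes (0.064%), and DESeq2 called 0 members. At an unadjusted p under 0.05, 0 members were higher and 1 was lower, compared with 2.71% and 3.72% of all genes. The log2 ratio was above 0 for 40 members and below 0 for 32, with a median of 0.003. Of the 72, 0 had all 3 miR-34sp mice above all 3 GFP Ctrl mice and 3 had all below, compared with 6.2% and 5.43% of all genes. The choroid plexus markers were lower in the miR-34sp mice, as given above. Of the other markers tested, 9 of 10 for astrocytes, 7 of 8 for endothelium and 6 of 11 for neurons were lower. For oligodendrocytes 10 of 11 and for microglia 5 of 10 were higher. Of all genes tested, 49.7% were higher. Outside the choroid plexus none of these markers was called, and the part of the markers was not tested.

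The 1 member under 0.05 was Rpl7l1, the paralogue of Rpl7. It measured 51.1, 52.4 and 53.5 RPM in the miR-34sp mice and 57.0, 56.3 and 57.7 RPM in the GFP Ctrl mice, with no overlap. Its ratio was 0.915-fold (95% interval 0.850 to 0.985, unadjusted p = 0.0229, adjusted p = 0.704, edgeR). Rpl7 itself measured 231, 229 and 229 RPM against 229, 232 and 235 RPM.

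At the upper end of this comparison stood Rpl22l1 with a log2 ratio of 0.11 ± 0.06 (SE), followed by Rpl29 (0.08), Rpl10a (0.08), Rpl36a (0.05) and Rpl32l (0.05). At the lower end stood Rps27l (-0.22 ± 0.13), followed by Rpl7l1 (-0.13), Rpl36 (-0.11), Rpl31 (-0.11) and Rps12 (-0.08). None of them passed the test (adjusted p of 0.704 or above, edgeR). For all 69 members above 10 RPM in every mouse the 95% interval lay within 1.3-fold, the widest bounds being 0.848 and 1.202.

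The effects of the sponges on the members, each against its own GFP Ctrl, were compared in 1 model of all 12 mice. Of 72 members, 0 differed at an adjusted p under 0.05 (edgeR), as did 0 of all 12835 genes (0.0%), and DESeq2 called 0 members. At an unadjusted p under 0.05 the miR-34sp effect was higher than the miR-9sp effect for 1 member (Rpl15, a 60S protein) and lower for 1 (Rpl10, which is added to the 60S subunit late in its assembly), compared with 2.55% and 3.55% of all genes. Rpl10 measured 160, 159 and 158 RPM after miR-9sp and 155, 157 and 154 RPM in the GFP Ctrl mice of that experiment. It measured 225, 225 and 226 RPM after miR-34sp and 230, 230 and 228 RPM in the other GFP Ctrl mice. In each experiment the groups did not overlap, and the difference between them was -0.09 on the log2 scale (adjusted p = 0.795, edgeR). The names of Rpl15 and Rpl10 were chosen after their values had been seen.

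**Figure D3:**
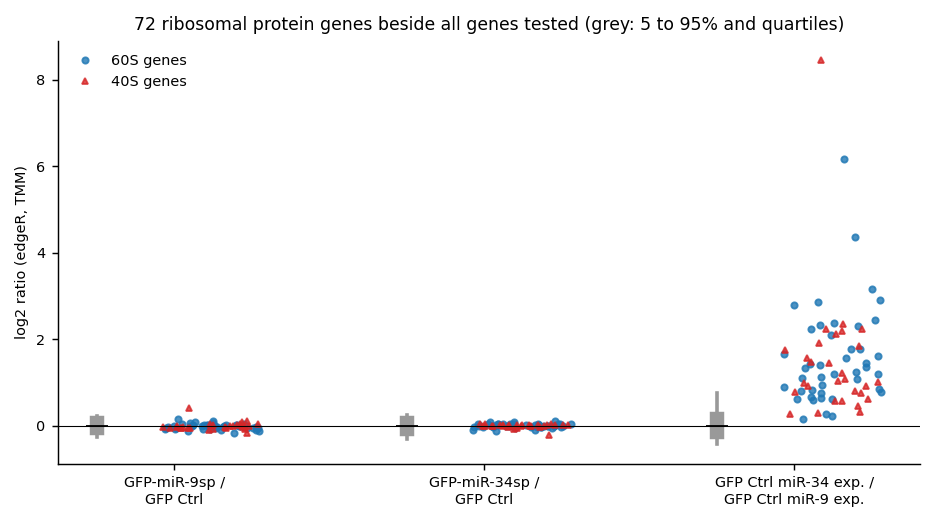
The log2 ratio (edgeR with TMM normalization) of each of the 72 ribosomal protein genes tested, as circles (60S) and triangles (40S), in the 3 comparisons, with the quartiles and the 5 to 95% range of all genes tested in grey. The members lie near 0 in both sponge comparisons and all above 0 between the GFP Ctrl sets, with a median of 1.21.

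The GFP Ctrl mice of the experiments received the same vector, and comparing them shows how far the ribosomal protein genes differed without any sponge. Nearly all were higher in the miR-34 experiment. Of 72 members, 70 were called higher and 0 lower at an adjusted p under 0.05 (edgeR), compared with 13.5% and 11.7% of all 12878 genes. The median log2 difference was 1.21, a 2.31-fold ratio, with quartiles of 1.71-fold and 3.90-fold, while the median of all genes was -0.005. More than 2-fold differences were found for 44 members and more than 4-fold for 18, compared with 3.62% and 1.24% of all genes.

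The sponge mice followed their own experiment. All 6 mice of the miR-34 experiment stood above all 6 of the miR-9 experiment for 69 of the 72 members, compared with 9.48% of all genes. The ratio of means between experiments had a median of 2.23 in the GFP Ctrl mice and 2.38 in the sponge mice. Of 10 choroid plexus markers tested between the GFP Ctrl sets, 10 were higher in the miR-34 experiment and 7 were called (edgeR), among them Ttr, with a log2 difference of 2.28 (adjusted p = 0.0263). Summed over the list of 12, they measured 658 to 2419 RPM in the GFP Ctrl mice of the miR-34 experiment and 131 to 763 RPM in those of the miR-9 experiment, and their part in the difference of the members was not tested.

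Each set of GFP Ctrl mice belongs to 1 experiment, so the experiment, the preparation and depth of its libraries and the processing of its reads cannot be told apart. Alignment names include totRNA for the miR-9 experiment alone, while poly-A enrichment is described for every library. The part of the preparation in the difference was not tested.

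Rps23, a protein of the decoding centre of the 40S subunit, differed most. It measured 222, 216 and 213 RPM in the GFP Ctrl mice and 212, 230 and 218 RPM in the miR-34sp mice of the miR-34 experiment. In the miR-9 experiment it measured 0.491, 0.653 and 0.789 RPM in the GFP Ctrl mice and 0.357, 0.579 and 0.730 RPM in the miR-9sp mice. A gene counted 2380 times or more per mouse in one experiment was thus counted 15 times or fewer in the other. The ratio in the GFP Ctrl mice was 352-fold (95% interval 311 to 398, edgeR). This interval was derived from the test statistic and is too narrow for the 12 to 15 reads per GFP Ctrl mouse of the miR-9 experiment. The log2 ratio was 8.46, and 8.28 to 8.61 without single mice.

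Rpl28, a 60S protein, measured 125, 118 and 112 RPM in the GFP Ctrl mice of the miR-34 experiment and 2.13, 1.54 and 1.32 RPM in those of the miR-9 experiment, a 72.3-fold ratio (61.7 to 84.7). Rpl21, a 60S protein, measured 89.1, 84.2 and 89.9 RPM against 4.38, 4.33 and 4.47 RPM, a 20.7-fold ratio (18.8 to 22.8). The intervals of Rpl28 and Rpl21 are too narrow in the same way. They rest on 25 to 52 reads (Rpl28) and 85 to 107 reads (Rpl21) per GFP Ctrl mouse of the miR-9 experiment. The log2 ratio of Rpl28 was 6.05 to 6.41 without single mice. Rpl9, a 60S protein near the base of the stalk, measured 230, 225 and 234 RPM against 25.7, 26.7 and 27.9 RPM, an 8.92-fold ratio (8.35 to 9.54). These 3 genes had no overlap by a wide margin. Their spread was not small in every group. In the miR-9 experiment Rpl28 had an SD of 0.420 on a mean of 1.66 RPM in the GFP Ctrl mice. Rpl21 had an SD of 0.588 on a mean of 4.29 RPM in the miR-9sp mice.

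Further down stood Rpl36 at 7.48-fold, the paralogue Rpl36al at 7.31-fold and, among those with the smallest p, Rpl13 at 5.16-fold. Rpsa, the 40S protein also known as the laminin receptor, measured 330, 334 and 338 RPM against 71.7, 67.0 and 65.7 RPM, a 5.08-fold ratio. Further members among those with the smallest p were Rps7 at 4.36-fold and Rpl6 at 3.08-fold.

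The stalk proteins stood together and below the median. Rplp0 measured 233, 241 and 231 RPM against 134, 134 and 126 RPM (1.85-fold), Rplp1 404, 416 and 422 RPM against 245, 241 and 239 RPM (1.77-fold) and Rplp2 102, 98.7 and 97.8 RPM against 60.5, 61.2 and 59.7 RPM (1.71-fold). By subunit, the median ratio was 2.54-fold for the 43 members of the 60S subunit tested and 2.03-fold for the 29 of the 40S subunit.

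Other members differed little, and 9 of the 72 differed by less than 1.5-fold. Rpl8 measured 299, 302 and 308 RPM against 284, 279 and 279 RPM, a 1.12-fold ratio (1.07 to 1.17). Rpl4 measured 575, 571 and 583 RPM against 508, 515 and 503 RPM, a 1.17-fold ratio (1.12 to 1.23). Rpl7l1 stood at 1.20-fold and Rps15 at 1.22-fold. Their groups did not overlap, and each passed the test (adjusted p of 0.00344 for Rpl8 and smaller for the others, edgeR).

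The 2 members that were not called were Rpl31 and Rps27, both listed under several entries and under 2 RPM. Rpl31 measured 1.61, 1.09 and 1.87 RPM against 1.11, 1.07 and 0.947 RPM (1.51-fold, adjusted p = 0.114, edgeR). Rps27 measured 1.54, 0.997 and 1.70 RPM against 0.901, 1.07 and 0.895 RPM (1.54-fold, adjusted p = 0.114, edgeR).

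Paralogues did not always follow the gene they are named after. Rpl36al stood at 7.31-fold and Rpl36a, from which it is named, at 2.10-fold. Rpl7l1 stood at 1.20-fold and Rpl7 at 2.68-fold. Rpl32l stood at 5.43-fold and Rpl32 at 1.56-fold. Rpl22l1 stood at 1.74-fold, while Rpl22 had 1 read or none per mouse. Rps27l (1.75-fold) stood near Rps27 (1.54-fold), and Rps4x, the X-linked form of Rps4, at 2.98-fold. Since paralogues share sequence, how reads were divided between them is uncertain.

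The difference between the experiments was larger for members with more repeated sequence. For each gene the share of 50-base windows of its transcript, the length of the reads, with an exact second copy elsewhere in mm9 was computed, on either strand. In the 8 members with less than 20% of such windows the median log2 difference was 0.29 (1.22-fold). It was 1.02 in 17 members with 20 to 50%, 1.22 in 23 with 50 to 80%, and 1.66 (3.16-fold) in 22 with 80% or more. The classes overlapped widely, with ranges of 0.16 to 0.98, 0.56 to 4.37, 0.29 to 2.87 and 0.62 to 8.46.

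Rps23 had 92.4% of its windows copied, Rpl9 95.3% and Rpl28 84.3%, while Rpl8 had 9.23% and Rpl4 18.9%. Rpl21 went against this order, with a 20.7-fold ratio and 28.3% of windows copied, and so did Rpl10, with a 1.53-fold ratio and 94.3%. Across the 70 members with windows Spearman's rho was 0.44 and Pearson's r was 0.35, where the points share libraries and base composition. For the sponge comparisons Spearman's rho was -0.09 (miR-9sp) and 0.13 (miR-34sp).

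Genes outside the ribosome showed the same order. Of other genes tested, 8.24% of 11084 with less than 20% copied windows were called higher in the miR-34 experiment, 63.4% of 475 with 20 to 50%, 85.4% of 247 with 50 to 80%, and 90.8% of 98 with 80% or more. Their median log2 differences were -0.02, 0.36, 0.88 and 1.52. In each class the median of the ribosomal protein genes was above that of the other genes and these differences between medians were not tested. How reads that fit several places in the genome were handled in each experiment is not given in the sources used here, and its part in the difference was not tested.

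**Figure D4:**
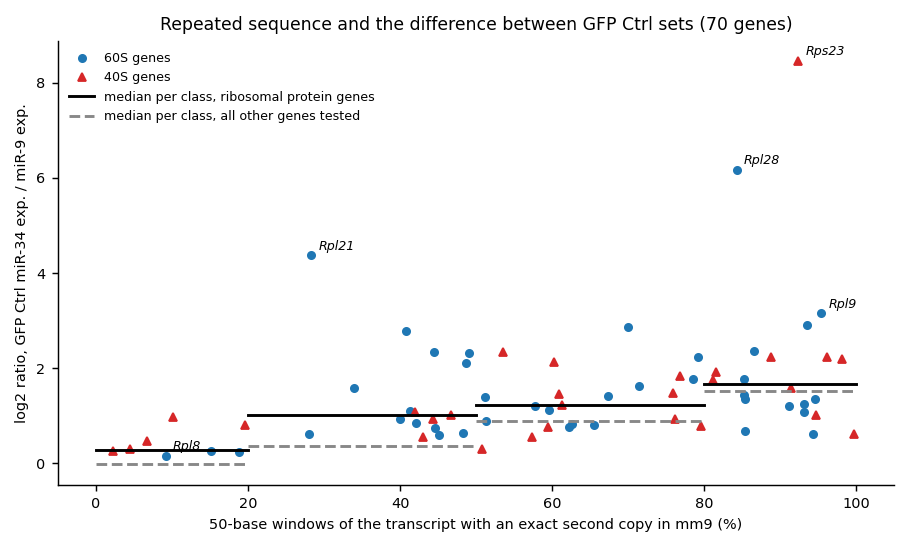
The log2 ratio of the GFP Ctrl mice of the miR-34 experiment to those of the miR-9 experiment against the share (%) of 50-base transcript windows with an exact second copy in mm9, for 70 ribosomal protein genes (circles, 60S, and triangles, 40S). Lines give the median per class of copied share, 0.29 to 1.66 for these genes and -0.02 to 1.52 for all other genes tested.

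Length and the pyrimidine run were described in the same way, without a test. The median log2 difference was 1.35 (range 0.16 to 8.46) in 55 members shorter than 1000 bases and 0.89 (0.23 to 4.37) in 17 longer ones, and 0.20 and -0.02 in 908 and 11898 other genes. Spearman's rho with length was -0.14 and Pearson's r -0.13 across the 70 members with windows. The median was 1.22 in the 45 tested members with a pyrimidine run of at least 8 bases near the annotated start and 0.89 in the 9 without, a small group.

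Genes that work with the ribosome were read as lists. Fau encodes a ubiquitin-like protein fused to a 40S protein, and Ubb a chain of ubiquitins. Ubb was called higher in the miR-34 experiment, with a log2 difference of 2.62 (edgeR). Fau, which has 3 RefSeq entries, had 0.140 to 0.907 RPM in the 12 mice and was not tested.

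The counts of the lists that follow stand beside 13.5% of all genes called higher and 11.7% called lower. Of 19 other genes with TOP mRNAs that were tested, 9 were called higher and 2 lower, with a median log2 difference of 0.11. Tpt1, an abundant growth-related protein, stood at 1.64 and the elongation factor gene Eef1a1 at 1.41, with 58.9% and 73.7% of windows copied. Eef2, the gene of the translocation factor, stood at -0.03 with 11.1% copied (adjusted p = 0.580, edgeR), and Rack1, a protein bound to the 40S subunit, at 0.18 with 3.57% copied. Pabpc1, the poly-A binding protein, stood at 0.41. The lowest of the list was Naca at -0.70 (adjusted p = 0.0143, edgeR). Copied shares of the other genes of this list are not given here, so these few do not show whether the list follows the copied share.

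Of 41 genes of ribosome biogenesis that were tested, 6 were called higher and 3 lower, shares near or under those of all genes, with a median log2 difference of 0.03. The extremes were Fbl, the methyltransferase of ribosomal RNA, at 1.35 and Polr1b, a subunit of RNA polymerase I, at -0.33. Of 10 regulators of TOP mRNAs, 2 were called higher, the cap-binding protein gene Eif4e (0.29) and Larp1 (0.11). The 3 called lower were Mtor (-0.14), Rps6kb1 (-0.14) and Rps6kb2 (-0.46), and the median of the 10 was -0.10. Of 73 genes of the mitochondrial ribosome, 26 were called higher and 0 lower, with a median of 0.15, compared with 1.21 for the cytosolic ribosome. In both sponge comparisons, 0 genes of these lists were called (edgeR).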

How the data were processed

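The authors trimmed the 50 bp single end reads, mapped them and quantified them to RefSeq. The submitters' processing notes name STAR. The methods name mm9 and the notes mm10, and the counting tool is not given in the sources used here. The deposited values are raw counts per RefSeq entry for each mouse. Per the file headers the other column is the length of the entry.

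Of 32850 entries, 98.7% were matched to a symbol and summed. The unmatched held 0.773% to 2.18% of reads. The members and lists were chosen with earlier results of these data known. Rps3a1, whose symbol the rule does not take in, and Rps4l, a pseudogene, were left out. Genes with a mean above 10 scaled reads were tested with edgeR 4.0.16 (R 4.3.3, glmQLFTest, TMM, Benjamini-Hochberg), with DESeq2 1.42.0 as an alternative, and the code was tested on simulated data. Whether replicate mice shared a litter is not given. Genes named were the 5 highest and 5 lowest members in each of the first 3 comparisons, those with an adjusted p under 0.05 (at most 10), the extremes per kilobase, the stalk proteins, Rpsa, the paralogues, and set genes and extremes of the lists, and some of these are not reported here. Copied windows were taken from the GENCODE M1 transcript nearest in length to the RefSeq entry, at every base for members and every 10 bases for other genes. Python 3.11.15 and pandas 2.3.3 were used. The alternatives were total counts in place of TMM, DESeq2, a minimum of 1 read, the entry with the most reads, TMM without the members, all 12 mice in 1 model and leaving out each mouse.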

Additional observations from a re-analysis of the deposited data

How the results depend on the processing

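The number of members called stayed at 0 for both sponges and for the difference between them, and at 70 higher and 0 lower between the GFP Ctrl sets, under every alternative run and without each mouse in turn. The median log2 difference between the GFP Ctrl sets was 1.21, and it was 1.16 with total counts and 1.12 with all genes of at least 1 read. The number of all genes called was less stable, and the cause was not tested. For miR-9sp it was 0, 2 with DESeq2, 2 with a minimum of 1 read and 0 to 1 without single mice. For miR-34sp it was 8, 4 with total counts, 36 with DESeq2, 81 with a minimum of 1 read, 4 with the entry with the most reads, 4 with TMM without the members, 0 in the model of all 12 mice and 0 to 57 without single mice, the highest without GFP Ctrl mouse 10. For the difference between sponges it was 0, 5 with DESeq2, 4 with a minimum of 1 read and 0 to 1 without single mice. Of the log2 ratios of named members, 428 kept their direction and 4 reversed, none of them called. Without single mice, Rps23 ranged from -0.43 to 0.086 (miR-9sp, positive without mouse 17), Rpl32l from -0.079 to 0.15 (miR-34sp, negative without mouse 18) and Rpl31 from -0.28 to 0.051 (miR-34sp, positive without GFP Ctrl mouse 8 or miR-34sp mouse 18). No paired analysis was possible because the mice of the groups compared share no number, apart from 1 number common to both GFP Ctrl sets. The 12 untested members, Rps27 and Rpl31, and Rps23 in the miR-9 experiment rest on few reads, and the cause of their low counts was not tested.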
